A study of Rattus norvegicus with 36 samples.

Results

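The comparison described is that of the 4 rats injected with 340 kBq of 131I with the 4 control rats, which were mock-treated with saline without 131I and carry the label 0 kBq. The arrays were chosen by these labels, and they are 8 of the 36 arrays of the series, which comprises 9 groups of 4 rats. The other 28 arrays belong to rats injected with 7 other activities between 9 and 4700 kBq. All animals were healthy adult male Sprague Dawley rats, an outbred laboratory strain, with no genetic alteration. Each was given its injection in the tail vein and killed 24 h later, and the RNA of each excised thyroid was hybridized to 1 Agilent array with a single dye, so that every value below stems from 1 rat. Groups were injected in the order of rising activity, with the controls last, and the activity therefore cannot be told apart from the time of injection. Which rats shared a cage is not given in the sources used here.

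131I is a radioactive isotope of iodine that emits beta particles and gamma rays. Follicular cells of the thyroid take up iodide from the blood through the sodium iodide symporter (*Slc5a5*), and the iodine is coupled to thyroglobulin (*Tg*), the protein from which the thyroid hormones are released. The same gland holds C cells, which secrete calcitonin, and in the rat the parathyroids lie on or in its surface, next to the trachea, the oesophagus, and the strap muscles of the neck. Ionizing radiation damages DNA and can activate the transcription factor p53, whose targets include the cell cycle inhibitor *Cdkn1a* and the p53 inhibitor *Mdm2*. Most tissues also have a circadian clock, in which BMAL1 and CLOCK activate genes through E-boxes, and PER, CRY, and CIART proteins repress that activation. The transcripts of this loop rise and fall each day, and *Dbp*, a clock output, is among those with the widest daily swing in many tissues.

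The values are log2 intensities of the 30367 probes that are not controls, after quantile normalization, which gives all 36 arrays the same distribution of values. Signal over background was the measure of sensitivity. The share of probes well above background was 64.8%, 67.1%, 70.3%, and 88.5% on the arrays of 340 kBq rats 1 to 4, and 68.4%, 72.6%, 62.1%, and 74.5% on those of control rats 1 to 4. Rat 4 of the 340 kBq group thus stood above the other 7, and it was also the highest of the 36 arrays. On that array 1988 probes were well above background that were so on none of the other 35 arrays, against at most 74 for any other single array. Genes of olfactory and vomeronasal receptors, which belong to the sensory epithelium of the nose, were well above background in numbers of 56, 115, 125, and 666 of 1198 on the 340 kBq arrays and of 83, 130, 80, and 191 on the control arrays. The mean log2 intensity of these receptor genes was 4.19 on the array of rat 4 and between 3.65 and 3.96 on the other 7. The array of 340 kBq rat 1 differed in another respect, with 1365 outlier spots and a median variation of 13.5% between replicate spots of a probe, while the other 7 arrays had between 3.04% and 5.16%. Fits with array brightness as a covariate and without single rats are given beside the counts below.

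**Figure D1:**
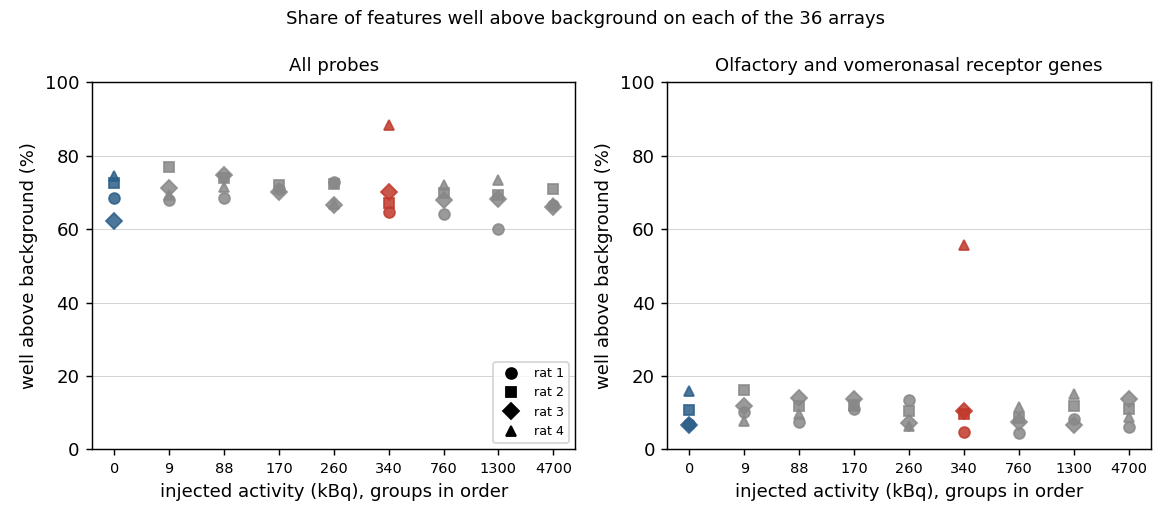
Share of the 30367 probes (left) and of the 1198 olfactory and vomeronasal receptor genes (right) well above background, in percent, against the injected activity in kBq, with 1 point per array, 340 kBq in red, controls in blue and the other groups in grey. The red point at 88.5% of the probes, and at 666 of the 1198 genes, is 340 kBq rat 4, which lies above all other points in both panels.

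No transcript was regulated after 340 kBq when an adjusted p-value below 0.01 and a change of 1.5-fold or more were required in limma's moderated test, that is 0 of 30367 probes (0.0%), and none was at an adjusted p-value under 0.05 (0.0%). The smallest adjusted p-value was 0.132, which the clock gene *Bmal1*, the gene with the smallest unadjusted p-value, shared with other probes. Without adjustment 2230 probes had a p-value under 0.05 (7.34%), of which 1231 were higher (4.05%) and 999 lower (3.29%). With an unadjusted p-value below 0.01 and a change of 1.5-fold or more, 547 probes were listed (1.8%), 381 higher (1.25%) and 166 lower (0.547%). All 4 irradiated rats lay above all 4 controls for 594 probes (1.96%) and below them for 413 (1.36%). The median standard error of a log2 difference was 0.44, and the median log2 difference of all probes was -0.02. The 36 arrays share 1 estimate of the spread in this test, and 4 arrays a group limit its precision. The paper used Nexus Expression with the same fold and adjusted p-value limits. It reports regulated transcripts in this group, more than in any other. The reason for the difference from the count of 0 found here was not tested.

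The 381 higher probes were dim in the controls. Their median log2 level there was 3.53, against 5.98 for the 166 lower probes and 7.65 for all probes, and 260 of them were well above background on none of the 4 control arrays. Rat 4 had the highest value of the 8 rats for 271 of the 381, and 109 were well above background on its array and on no other of the 36. When rat 4 was left out, 115 of the 381 and 68 of the 166 were listed again, and with array brightness as a covariate 296 and 137 were. Of the 166 lower probes, 114 were well above background on at least 1 array of each group and 50 on none of the 340 kBq arrays. The direction also depended on the scaling. With each array scaled to its 75th percentile in place of the quantile normalization, 1002 probes were higher and 14 lower under the same limits, and the median log2 difference of all probes was 0.25. Directions below are relative to the quantile normalized distribution.

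A fixed rule named the genes with the smallest p-values whose groups did not overlap. It also required signal well above background on at least 1 array of each group, and 25 higher and 24 lower genes met it. Of each direction the 12 with the smallest p-values are described, and a clock gene headed both. With 4 rats against 4, the exact permutation p-value of every such gene is 0.0286, the smallest possible, and the groups do not overlap by the construction of the rule. None of them had an adjusted p-value under 0.05.

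*Chst5*, which encodes a sulfotransferase that modifies N-acetylglucosamine on glycoproteins, had log2 levels of 8.25, 8.92, 8.41, and 7.18 in 340 kBq rats 1 to 4 and of 3.62, 5.04, 3.20, and 4.31 in control rats 1 to 4. The lowest irradiated rat stood more than 2 log2 units above the highest control, and the probe was well above background on all 4 irradiated arrays and on 1 control array, so that the control level was mostly signal near background. Its log2 difference was 4.15 ± 1.13 (SE, adjusted p = 0.382 in limma). Within the slides that carried both groups it was 3.88 on slide 2 and 4.09 on slide 5. Slide 2 carried 340 kBq rat 2 and control rat 2, and slide 5 carried 340 kBq rats 1 and 4 and control rat 1. Control rats 3 and 4 were on slide 1 and 340 kBq rat 3 on slide 3, without arrays of the other group. On 1 of the 2 scan days 340 kBq rats 1, 3, and 4 and control rat 1 were scanned. The other day held 340 kBq rat 2 and control rats 2, 3, and 4, so that scan day and group were partly confounded. The sign within a slide was fixed by the naming rule, since the groups do not overlap. *Chst5* also lay above the mean of the other irradiated groups, by 2.92 (unadjusted p = 0.0018, adjusted p = 0.249 in limma). Those groups had means between 3.25 at 760 kBq and 6.98 at 170 kBq with SDs up to 2.29 (n = 4), so that single rats of other groups reached the 340 kBq level, up to 9.89.

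*Cyp2b2*, a cytochrome P450 known for its induction by phenobarbital in the liver, had log2 levels of 8.13, 6.42, 8.64, and 5.98 against 4.80, 4.62, 3.96, and 4.98 in the controls. Rats 1 and 3 were the high ones, and the probe was well above background on 1 control array, as for *Chst5*. The log2 difference was 2.70 on this probe and 3.12 on the second one. *Sstr2*, a somatostatin receptor, had levels of 8.15, 6.97, 7.995, and 7.83 against 6.60, 6.46, 5.29, and 5.90, with rat 2 nearest to the controls. Its log2 difference was 1.67 ± 0.39 (SE) against the controls and 1.29 against the other irradiated groups. A second probe of *Sstr2* had 0.88 against the controls.

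The remaining higher genes were the lysophosphatidic acid receptor *Lpar3* (log2 difference 0.96), the transcriptional corepressor *Tle1* (0.92), the peptidylarginine deiminase *Padi3* (1.40), the RNA-binding protein gene *Zmat3*, a known p53 target (0.91), the splicing-associated *Acin1* (0.63), *Scaf4*, which acts in transcription termination (1.18), *Msgn1*, a transcription factor of the embryonic mesoderm (1.26), and *Ptmal1* (1.66). The probes of a gene did not always match. Further probes of *Acin1*, *Msgn1*, and *Zmat3* had log2 differences of 0.09, 0.01, and 0.15, and those of *Scaf4* lay between -0.14 and 0.11. Rat 4 was the highest of the 4 irradiated rats for *Lpar3*, *Msgn1*, *Zmat3*, *Padi3*, *Scaf4*, and *Ptmal1*. *Scaf4* lost an unadjusted p-value under 0.05 with array weights and with only the groups compared. *Ptmal1* was well above background on 1 array of each group, so that its difference rests mostly on signal near background. *Tle1* had nearly the same level in the 4 irradiated rats, from 10.76 to 11.04, and was between 9.36 and 10.31 in the controls.

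Among the lower genes, *Gal*, which encodes the neuropeptide galanin, had log2 levels of 2.64, 4.45, 3.08, and 4.63 in the irradiated rats and of 7.36, 7.40, 4.85, and 6.20 in the controls. Rat 4 and control rat 3 were the closest, and the probe was well above background on 1 irradiated and 3 control arrays. Its log2 difference was -2.75 ± 0.77 (SE), and a second probe had -2.11. *Sele*, the endothelial adhesion molecule E-selectin, was at 4.57, 4.79, 3.33, and 3.07 against 5.77, 5.88, 6.17, and 6.21, a log2 difference of -2.07, while its second probe gave 0.55. The first probe of *Sele* was well above background on 1 irradiated and 3 control arrays, so that its value rests in part on signal near background. *Sqstm1*, an autophagy receptor, was at 10.46, 11.03, 10.45, and 10.88 against 11.52, 11.66, 11.31, and 11.30, with a log2 difference of -0.74 and of -0.32 on a second probe. *Ddit4*, an inhibitor of mTORC1 signalling, had -1.27 on the probe of smallest p-value and -1.04 on the brighter one, on which the groups overlapped.

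*Ngdn* (-0.94), a nucleolar protein gene, *Frmd8* (-0.997 on one probe and -0.19 on the other), *Spmip4* (-2.30), *RGD1311745* (-0.60), and the F-box gene *Fbxo36* (-1.29) were also lower, in log2 difference. *Fbxo36* was well above background on 1 array of each group and *Spmip4* on 1 irradiated and 4 control arrays. An unadjusted p-value under 0.05 was lost for *Fbxo36* in 4 of 21 settings. These were scanner signal scaled to the 75th percentile, to the median, or by quantiles, and normexp. For *Frmd8*, *Ngdn*, *Gal*, *Sele*, *Sqstm1*, and *RGD1311745*, the difference from the other irradiated groups had the same sign, between -1.84 and -0.43. Their unadjusted p-values were at most 0.00558 and their adjusted ones between 0.240 and 0.304 in limma. The other lower named genes had a negative difference too, with unadjusted p-values from 0.0143 for *Ddit4* to 0.63 for *Dbp*.

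**Figure D2:**
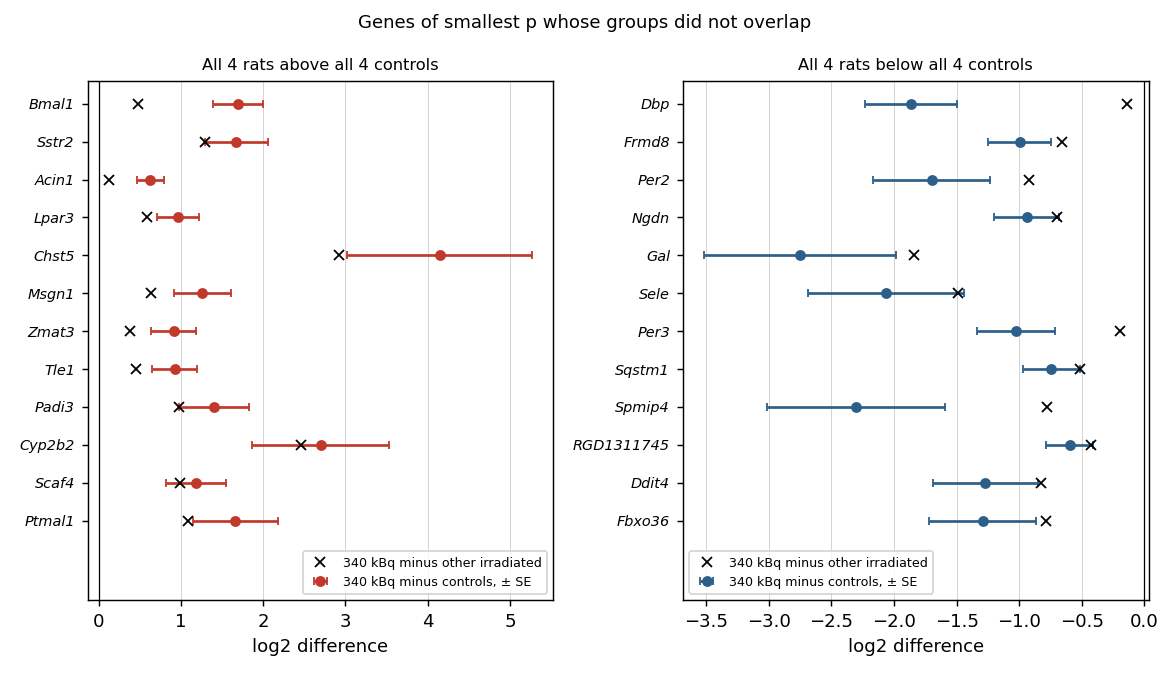
Log2 difference on the x axis for the 12 higher (left) and the 12 lower (right) named genes, with points for 340 kBq minus controls, bars for ± 1 SE of the limma fit, and crosses for 340 kBq minus the mean of the 7 other irradiated groups. *Chst5* (4.15) and *Cyp2b2* (2.70) had control signal well above background on 1 of 4 arrays and lie on the positive side against the other irradiated groups too (2.92 and 2.46), while the crosses of *Dbp* and *Per3* lie near 0.

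The core clock activator *Bmal1* had log2 levels of 11.96, 11.62, 11.86, and 11.24 in the 340 kBq rats and of 9.97, 10.62, 9.09, and 10.23 in the controls, 11.67 ± 0.32 and 9.98 ± 0.65 (mean ± SD, n = 4). All irradiated rats lay above all controls, with rat 4 lowest. The log2 difference was 1.70 ± 0.30 (SE, unadjusted p = 4.87e-06, adjusted p = 0.132 in limma), and the second probe had 1.48. *Dbp*, which encodes a PAR bZIP transcription factor under direct control of the clock, was at 14.06, 14.90, 13.50, and 14.93 against 16.20, 16.68, 16.95, and 15.37, again without overlap of the groups. Its log2 difference was -1.95 ± 0.39 (SE, unadjusted p = 2.46e-05, adjusted p = 0.149 in limma) and between -1.95 and -1.85 on its 3 probes. Within the slides, between the same rats as for *Chst5*, the log2 difference was 1.01 on slide 2 and 1.63 on slide 5 for *Bmal1*. For *Dbp* it was -1.78 and -1.71. Since the groups do not overlap, the sign within a slide was fixed beforehand.

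*Per2*, a repressor of the loop, was at 7.12, 8.04, 7.87, and 8.09 after 340 kBq and at 9.19, 9.66, 9.95, and 9.12 in the controls. The groups were separated by more than 1 log2 unit, and the log2 difference was -1.70 ± 0.47 (SE, adjusted p = 0.405 in limma). *Ciart*, the repressor also known as CHRONO, was at 3.92, 4.21, 3.01, and 3.17 against 6.31, 6.80, 8.15, and 3.81. The difference was -2.69 ± 0.81 (SE, unadjusted p = 0.00233 in limma, exact permutation p = 0.0857), and control rat 4 lay among the irradiated rats. The probe was well above background on 1 irradiated and 3 control arrays, so that this value rests in part on signal near background. *Cry1*, whose protein represses BMAL1 and CLOCK, was at 10.87, 11.16, 11.27, and 10.35 against 9.18, 10.43, 10.43, and 8.92, a log2 difference of 1.17 in which rat 4 overlapped with control rats 2 and 3.

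Of 9 clock output and repressor genes with a probe, 3 were lower at an unadjusted p-value under 0.05 (3.29% of all probes) and 0 higher, and 7 of the 9 had a negative log2 difference, with a median of -0.36 against -0.02 for all probes. The median was -0.18 without control rat 3, -0.61 without 340 kBq rat 2, -0.63 with the slide as a block, -0.11 with array brightness, and -0.84 with the thyroid signal covariate, where 5 genes were lower (3.64% of all probes). Of 5 genes in the list of clock activators and genes of their phase, 3 were higher (4.05% of all probes) and 0 lower, with all 5 above 0 and a median of 1.17. *Clock* was among the 3 (0.77), with overlapping groups, and lost the limit in 8 of 22 settings, with median centring, the slide as a block, the scan day as a term, or only the groups compared, and without 340 kBq rat 1 or 3 or control rat 2 or 3. The median of 1.17 was 0.78 with the thyroid signal covariate, where 4 genes were higher (4.38% of all probes). With the slide as a block 2 were higher (2.66%). *Nfil3*, a bZIP repressor that competes with DBP at D-boxes, was at 10.08, 10.20, 10.76, and 10.10 against 9.55, 8.82, 8.78, and 8.86. The groups did not overlap, while the log2 difference of 1.28 had an unadjusted p-value of 0.074 in limma. *Tef*, a relative of *Dbp*, had -0.46, and *Per3* had log2 differences between -1.02 and -0.32 on its 3 probes.

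The levels in the other groups were read alongside. *Bmal1* had means of 11.91, 11.86, 11.73, and 11.62 after 9, 88, 170, and 260 kBq, 11.67 after 340 kBq, and 10.76, 10.80, and 9.69 after 760, 1300, and 4700 kBq. *Dbp* had means of 13.54, 13.52, 13.57, and 13.83, then 14.35 after 340 kBq, and 15.32, 15.56, and 16.62. For both, the 340 kBq mean lay nearer to that of the 260 kBq group than to that of the controls, with SDs between 0.17 and 0.69 in the groups up to 340 kBq (n = 4). The controls lay next to the 4700 kBq group, with means of 9.98 for *Bmal1* and 16.30 for *Dbp*. Both genes headed the named genes by their difference from these controls, so that distance from the controls was built in. Activity and time of injection cannot be told apart in these means. Against the mean of the other irradiated groups, the log2 difference was 0.48 for *Bmal1*, -0.22 for *Dbp*, and -0.92 for *Per2* (adjusted p = 0.541, 0.754, and 0.398 in limma).

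**Figure D3:**
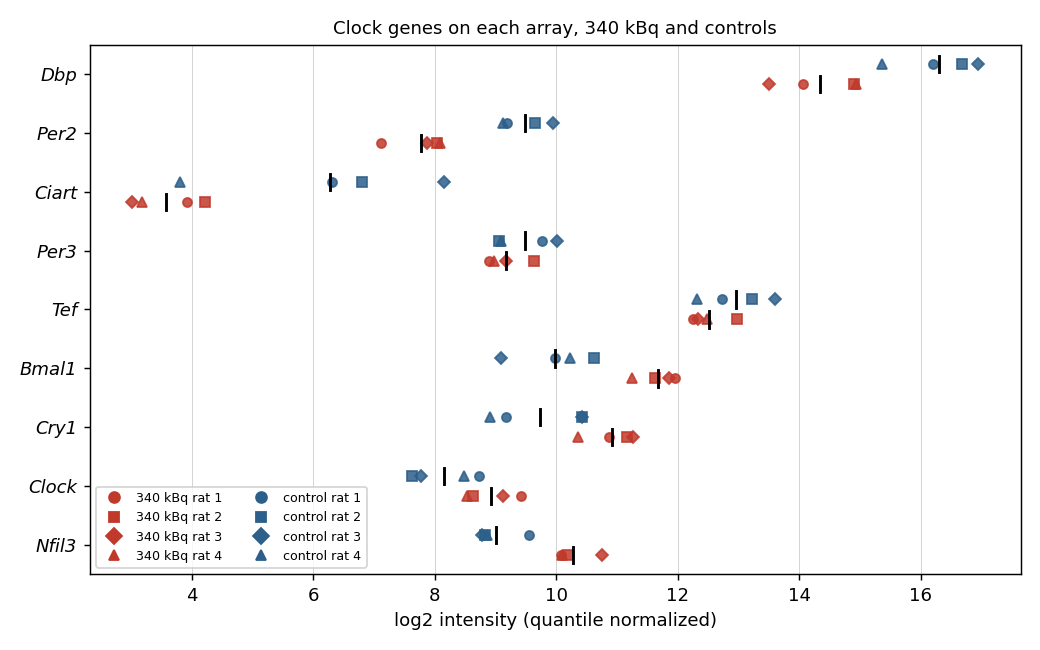
Log2 intensity on the x axis of 9 clock genes on each array, with controls in blue on the upper line and 340 kBq in red on the lower line of a gene, marker shapes for rats 1 to 4 and black bars for group means. The red points of *Dbp* and *Per2* lie left of all blue points and those of *Bmal1* and *Nfil3* right of them, while in *Ciart* 1 blue point lies among the red.

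The promoters of *Bmal1*, *Per2*, and *Ciart*, chosen because these letters were found there, are shown for the short elements through which the clock is known to act: E-boxes bound by BMAL1 and CLOCK, a D-box bound by DBP and NFIL3, and an element bound by ROR and REV-ERB receptors. The sequences run from 250 bases before to 50 bases after the gene start, 5′ to 3′ on the strand of the gene, from RefSeq on the assembly GRCr8. They lie at chr1:176766078-176766377 on the plus strand for *Bmal1*, at chr9:99496944-99497243 on the minus strand for *Per2*, and at chr2:186112197-186112496 on the minus strand for *Ciart*. Capitals mark the motifs found.
Bmal1: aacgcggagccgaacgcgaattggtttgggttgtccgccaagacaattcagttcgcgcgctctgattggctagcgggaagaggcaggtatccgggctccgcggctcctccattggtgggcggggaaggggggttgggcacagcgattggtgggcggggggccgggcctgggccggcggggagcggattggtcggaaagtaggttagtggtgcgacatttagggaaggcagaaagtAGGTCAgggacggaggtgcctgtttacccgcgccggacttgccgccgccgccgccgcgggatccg
Per2: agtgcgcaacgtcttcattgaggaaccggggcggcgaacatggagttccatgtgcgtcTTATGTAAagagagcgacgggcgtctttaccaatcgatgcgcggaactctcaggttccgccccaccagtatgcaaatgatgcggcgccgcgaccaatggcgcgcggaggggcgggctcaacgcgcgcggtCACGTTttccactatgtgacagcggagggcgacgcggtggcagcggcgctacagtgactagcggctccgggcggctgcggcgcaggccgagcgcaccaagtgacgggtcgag
Ciart: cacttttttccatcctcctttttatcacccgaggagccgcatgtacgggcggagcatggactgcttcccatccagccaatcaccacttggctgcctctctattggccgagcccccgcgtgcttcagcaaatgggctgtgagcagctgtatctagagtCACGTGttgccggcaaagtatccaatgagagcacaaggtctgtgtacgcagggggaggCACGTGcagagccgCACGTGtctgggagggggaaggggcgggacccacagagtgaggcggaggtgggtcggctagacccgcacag
The capitals in *Bmal1* are the letters AGGTCA of the ROR element, 15 bases before the start. *Per2* holds the letters CACGTT, a variant of the E-box, 62 bases before the start and the D-box letters TTATGTAA 192 bases before it. *Ciart* holds the E-box letters CACGTG 93, 35, and 21 bases before the start. On both strands together, CACGTG occurred in 6.42% of 33469 such rat promoter windows, CACGTT in 4.83%, TTATGTAA in 0.893%, and AGGTCA in 16.2%. These matches describe letters in the window and not binding. Of the 9 clock genes looked up, 8 had a window. Those of *Dbp*, *Clock*, *Nfil3*, and *Per3* held none of these letters, and that of *Tef* held 1 E-box.

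Follicular cell markers differed widely between rats of the same group. *Tg* had log2 levels of 10.38, 12.11, 9.19, and 18.67 in 340 kBq rats 1 to 4 and of 18.64, 18.61, 14.48, and 19.02 in control rats 1 to 4. Rat 4 thus had the level of 3 of the controls, whereas rats 1 to 3 lay below every control. The log2 difference was -5.10 ± 2.70 (SE, unadjusted p = 0.0688, adjusted p = 0.703 in limma, exact permutation p = 0.114). The transcription factor gene *Pax8* was at 4.92, 4.60, 5.27, and 14.05 against 14.49, 13.35, 6.55, and 15.96. Control rat 3 was the low control and 340 kBq rat 4 the only high irradiated rat, and the log2 difference was -5.38 ± 3.05 (SE).

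Over the 14 genes of hormone synthesis and iodide handling, the mean log2 intensity was 7.96, 7.62, 7.98, and 12.16 in the irradiated rats and 12.61, 11.61, 8.13, and 12.95 in the controls. A difference was negative in 13 of the 14, with a median of -1.45, and 0 passed an unadjusted p-value of 0.05. The median was -0.89 without 340 kBq rat 2, -2.18 without rat 4, -2.36 without control rat 3, -2.29 with array brightness, -2.62 with array weights, and 0.15 with the thyroid signal covariate. The number of lower genes at that limit was 4 without 340 kBq rat 4 (3.63% of all probes were lower in that fit) or control rat 3 (6.18%), 6 with array brightness as a covariate (9.32%), and 8 with array weights (14.8%). *Slc5a5* had a log2 difference of -4.09 and the deiodinase *Dio1* one of -4.08. *Tg* was the most abundant member, and the summed intensity of the list ranged from 12483 in 340 kBq rat 2 to 1053500 in control rat 4. The 5 thyroid transcription factors and TSH receptor genes all had a negative log2 difference with overlapping groups, among them *Hhex* (-3.49), *Nkx2-1* (-3.97), and *Foxe1* (-0.92), with a median of -3.49 and 0 at p under 0.05. The number of lower genes was 2 without 340 kBq rat 4 or control rat 3, 4 with array brightness, and 5 with array weights, in the fits whose shares of all probes are given above, and the median was -5.32 with array weights and 0.27 with the thyroid signal covariate. In excised tissue, fewer follicular cells and less RNA of these genes per cell cannot be told apart.

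The mean of the C-cell list followed the same rats, but not every gene of it did. *Calca*, which encodes calcitonin, was at 5.36, 8.52, 4.87, and 17.58 against 18.56, 17.93, 8.69, and 18.56. Of the 12 genes of the list, 11 had a negative log2 difference, with a median of -3.30, and 2 were lower at an unadjusted p-value under 0.05 (3.29% of all probes). There were 5 without 340 kBq rat 4 (3.63% of all probes), 4 without control rat 3 (6.18%), 8 with array brightness (9.32%), and 8 with array weights (14.8%), and the median was -0.40 with the thyroid signal covariate. None was lower with the slide as a block, with the scan day or the thyroid signal as a term, or without 340 kBq rat 3, control rat 1, or control rat 4. The pair were *Scg2*, a granin of secretory granules, at 6.92, 6.34, 2.87, and 7.45 against 9.71, 8.74, 8.27, and 10.25, and the synaptic fusion protein gene *Snap25*, at 5.79, 5.70, 3.49, and 5.43 against 8.42, 7.07, 7.13, and 8.79. Both had groups without overlap, so that 340 kBq rat 4 lay below every control, unlike for *Tg* and *Calca*. The log2 differences were -3.35 ± 1.47 and -2.75 ± 1.22 (SE), with adjusted p-values of 0.64 and 0.643 in limma. *Pth*, the parathyroid hormone gene, was high in 340 kBq rat 4 (16.47), control rat 2 (18.14), and control rat 4 (15.71), and between 2.62 and 7.18 in the other 5 rats.

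Other neighbouring tissues also differed between rats of a group. *Bpifa1*, a secreted protein of the airway epithelium, was at 16.26, 17.50, 16.06, and 7.96 against 6.91, 7.49, 12.76, and 8.70, and its log2 difference was 5.48 ± 1.997 (SE, unadjusted p = 0.0103, exact permutation p = 0.0857). Rats 1 to 3 lay above all controls and rat 4 within them. Of the 6 genes of airway epithelium and cilia, 4 had a positive and 2 a negative log2 difference, down to -0.78. Their median was 0.43, and -0.49 without 340 kBq rat 2. *Bpifa1* was the 1 gene of that list higher at an unadjusted p-value under 0.05 (4.05% of all probes). The number was 3 without 340 kBq rat 4 (2.98% of all probes) or with array weights (10.1%). It was 2 with 75th percentile scaling (11.7%) or array brightness (7.24%). The keratin gene *Krt13* of squamous epithelium was high in 340 kBq rats 1 and 3 (16.90 and 17.18) and in control rat 3 (17.10), and between 5.64 and 7.47 in the other 5. Of the 9 squamous genes 6 had a positive and 3 a negative log2 difference. Their median was 0.83, and -0.11 without 340 kBq rat 1 or -0.20 without rat 3. Lymphoid markers were high in 1 rat of the 8, control rat 2, with *Rag1*, the recombinase of developing lymphocytes, at 14.48 against 2.78 to 4.25, and the T cell gene *Cd3d* at 16.86 against 7.78 to 9.69. The median log2 difference of the 10 lymphoid genes was -1.80, and 0.01 without control rat 2. *Ucp1*, the marker of brown fat, was between 15.08 and 16.22 in 340 kBq rat 4 and control rats 1 and 4, and between 3.75 and 10.57 in the others. Of the 9 adipose genes 2 had a positive and 7 a negative log2 difference. Their median was -0.22, and 0.37 without 340 kBq rat 3 or 0.24 without control rat 1.

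Fast muscle genes were bright in all 8 thyroids, with list means from 17.39 to 18.21, and the 12 differences were all positive with a median of 0.17, which turned to -0.10 with the slide as a block, to -0.46 with the scan day as a term, and to -0.57 with the thyroid signal covariate. Of 10 cartilage genes 7 had a positive and 3 a negative difference, with a median of 0.52 that lay between -0.49 (without control rat 1) and 1.85 (without control rat 3) when single rats were left out, and was also negative without 340 kBq rat 1 (-0.04) or rat 2 (-0.39). It was -1.04 with the thyroid signal covariate and 2.28 with array weights. Of 9 slow muscle genes 2 had a positive and 7 a negative difference, with a median of -0.11 that was 0.01 with 75th percentile scaling, 0.55 without 340 kBq rat 1, -0.74 without control rat 4, and -0.75 with the scan day as a term. None of these 3 lists had a gene at an unadjusted p-value under 0.05. *Cdh5*, the endothelial cadherin, and the erythroid transcription factor *Klf1* were higher at that limit, by 0.78 and 0.72, with overlapping groups and 340 kBq rat 4 highest in both. Neither was with the slide as a block, the scan day or thyroid signal as a term, or only the groups compared, nor without 340 kBq rat 4 or control rat 2. *Klf1* lost the limit in 12 of 22 settings, which also took in normexp, array weights, array brightness, and leaving out 340 kBq rat 1 or control rat 1 or 3. *Alas2*, the erythroid enzyme of haem synthesis, had a log2 difference of 1.38 with overlapping groups.

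The connective and vascular lists had small differences. All 7 smooth muscle genes, all 8 genes of nerve and its sheath, and 9 of 10 fibroblast genes had a positive log2 difference, with medians of 0.37, 0.39, and 0.41 and 0 genes at an unadjusted p-value under 0.05. With the thyroid signal covariate these medians were -0.05, -0.05, and -0.07. With single rats left out, the smooth muscle median lay between 0.09 (without 340 kBq rat 2) and 0.65 (without rat 3). Without rat 3, 1 smooth muscle gene was higher at that limit, where 5.19% of all probes were higher. The nerve median lay between 0.17 (without control rat 2) and 0.78 (without control rat 3), and the fibroblast median between 0.13 (without control rat 4) and 0.91 (without control rat 3). The 10 macrophage genes had a median of 0.02, which was -0.07 with median centring, and the 9 endothelial genes one of -0.03, which was 0.01 with 75th percentile scaling. For the 9 genes of simple epithelium, 8 had a negative difference, with a median of -1.12 that was -0.33 without 340 kBq rat 2, -2.64 without control rat 3, -0.26 with the slide as a block, -0.13 with the scan day, and 1.54 with the thyroid signal covariate. For the 8 genes of thyroglobulin uptake and processing, 6 did, with a median of -0.61, and -0.03 with that covariate. The receptor genes of the nose had a median of 0.06, with 97 of 1198 higher and 56 lower at an unadjusted p-value under 0.05 (4.05% and 3.29% of all probes), with 37 and 29 without 340 kBq rat 4 (2.98% and 3.63%), and with 375 and 0 under 75th percentile scaling (11.7% and 0.649%). The filter on dim probes kept 109 of them, of which 0 were higher and 9 lower (1.96% and 2.83% of all probes kept). The median of 0.06 was 0.01 without 340 kBq rat 4 and 0.12 without control rat 3. It was 0.70 with 75th percentile scaling, 0.53 with median centring, and -0.25 for the 109 genes kept by the filter. Of the 1198 genes, 494 were well above background on none of the 8 arrays.

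**Figure D4:**
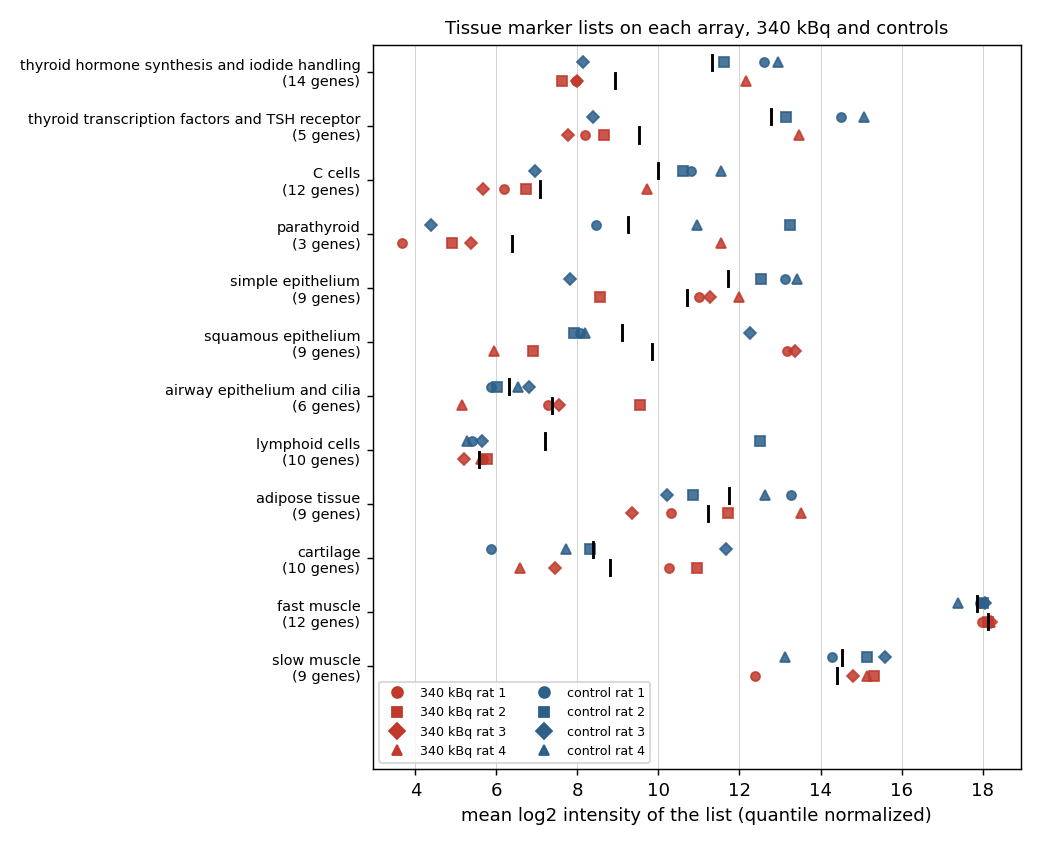
Mean log2 intensity of 12 tissue marker lists on the x axis, with controls in blue on the upper line and 340 kBq in red on the lower line of a list, marker shapes for rats 1 to 4 and black bars for group means. In the thyroid and C-cell lists, 340 kBq rat 4 lies with control rats 1, 2, and 4, and control rat 3 lies with or near 340 kBq rats 1 to 3.

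For the p53 targets, each read on its brightest probe, 0 of 22 passed an unadjusted p-value of 0.05, 9 had a positive and 13 a negative log2 difference, and the median was -0.06, and 0.24 with the thyroid signal covariate. In that fit 3 targets were higher and 0 lower at p under 0.05 (4.38% and 3.64% of all probes), without control rat 3 there were 3 and 1 (4.5% and 6.18%), and with array weights 3 and 4, in a fit where 10.1% of all probes were higher and 14.8% lower. *Zmat3* is 1 of these 22, read here on its brighter probe, with a log2 difference of 0.15. Its probe described above, without overlap of the groups, is not the one counted. *Cdkn1a* was at 14.58, 14.95, 14.64, and 13.61 in the irradiated rats and at 11.66, 12.31, 14.54, and 13.14 in the controls. Control rat 3 lay within the irradiated range, and the log2 difference was 1.53 ± 0.82 (SE, unadjusted p = 0.0724, exact permutation p = 0.0571). Its second, dimmer probe had a log2 difference of 0.22. *Mdm2* was at 11.58, 11.94, 11.89, and 11.41 against 11.10, 11.44, 11.83, and 11.00, a log2 difference of 0.36 with overlapping groups, and 0.43 on the other probe. *Plk2*, a kinase of the stress response, had 1.15, and the arrest genes *Btg2* and *Gadd45a* had -1.39 and -0.58.

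Of 17 genes of DNA damage signalling and repair, 14 had a negative log2 difference, with a median of -0.40 that was -0.03 without control rat 2, and 2 were lower at an unadjusted p-value under 0.05 (3.29% of all probes). *Brca1*, a homologous recombination factor, was at 3.71, 3.97, 4.34, and 3.55 against 4.69, 5.36, 5.57, and 4.77, without overlap, but was well above background on 1 irradiated and 2 control arrays. *Atm*, the kinase that signals DNA breaks, was at 5.30, 6.33, 5.59, and 4.09 against 6.63, 6.72, 5.79, and 6.64, with rat 2 within the control range. The log2 differences were -1.20 and -1.12 (unadjusted p = 0.00622 and 0.0079), and neither passed 0.05 with the arrays scaled to the 75th percentile, nor did *Atm* without 340 kBq rat 4 or *Brca1* with median centring. The number of lower genes in the list was 4 without control rat 3 (6.18% of all probes), with array brightness (9.32%), or with array weights (14.8%). Of 18 cell cycle genes 15 had a negative difference, such as *Mcm2* (-0.87) and *Pcna* (-0.65), with a median of -0.73 that became 0.14 without control rat 2, the rat with high lymphoid markers, -0.09 without 340 kBq rat 2, -0.16 without 340 kBq rat 4, -1.19 without 340 kBq rat 3, and 0.13 with array weights. The part of the lymphoid tissue in it was not tested further.

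Among the stress lists, the metallothionein genes *Mt1* and *Mt2A*, whose products bind zinc and copper, were lower at an unadjusted p-value under 0.05, by log2 differences of -2.40 and -2.33. Both lost that limit with the slide as a block, with the scan day as a term, and without 340 kBq rat 1 or 2 or control rat 1, 2, or 4. *Mt1* was at 12.41, 12.15, 12.16, and 14.93 against 16.45, 15.53, 12.62, and 16.63, with rat 4 and control rat 3 apart from their groups in the same way as for *Tg*. They and *Ddit4* were the 3 lower genes (3.29% of all probes) of the 12 in the glucocorticoid list, whose median was -0.11. *Ddit4* lost the limit on the brighter probe in 6 of 22 settings, with the slide as a block, with the scan day or thyroid signal as a term, and without 340 kBq rat 1 or 3 or control rat 2. For endoplasmic reticulum chaperones and stress genes, 15 of 16 had a negative log2 difference, with a median of -0.73 and 0 at p under 0.05. *Hsp90b1*, an abundant chaperone of that compartment, had -1.30, with rat 4 at 15.46 above the other 3 irradiated rats. In a fit with the mean thyroid signal of each array as a covariate, *Hsp90b1* had a log2 difference of 0.45, the list a median of 0.28 with 2 genes higher and 0 lower at p under 0.05, and the glucocorticoid list 1 lower gene in place of 3, where 4.38% of all probes were higher and 3.64% lower. With array weights the reticulum list had 7 lower genes and a median of -1.30, and with array brightness 3 and -1.16, in fits where 14.8% and 9.32% of all probes were lower. Its median was -0.48 without control rat 4, -1.11 without control rat 3, and -0.43 with the scan day as a term.

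Inflammatory genes were mixed. *Ccl2*, a monocyte chemokine, was at 10.03, 10.19, 11.21, and 9.94 against 9.30, 9.46, 10.002, and 8.44, with a log2 difference of 1.04 (unadjusted p = 0.0419) in which rat 4 lay just below control rat 3, and it lost the limit in 11 of 22 alternative settings, namely with median centring, normexp, the slide or rat number as a block, the scan day or thyroid signal as a term, and without 340 kBq rat 2 or 3 or control rat 1, 2, or 4. The neutrophil chemokine *Cxcl2* was at 6.57, 6.39, 10.99, and 6.14 against 4.94, 5.37, 5.30, and 5.07, without overlap, and rat 3 was far above the rest. *Ccl4* had a log2 difference of -2.29, with control rat 2 at 9.85 and the other controls between 4.995 and 5.82. It passed p under 0.05 and lost it in 11 of 22 settings, namely with 75th percentile scaling, median centring, normexp, 16 added, the slide as a block, the scan day or thyroid signal as a term, or only the groups compared, and without control rat 2 or 340 kBq rat 1 or 4. The 13 genes had a median of 1.04, which was -0.01 without 340 kBq rat 3. Of 8 MHC class II genes 7 had a negative difference, with a median of -0.59, and -0.20 without control rat 2. *RT1-DMb*, which acts in peptide loading, was lower at p under 0.05 (-0.64), a call lost with the slide as a block, with the scan day or thyroid signal as a term, with normexp, and without any single control rat or 340 kBq rat 1 or 3. *Cd74*, the invariant chain, had -0.76 with groups that did not overlap.

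Lists with small differences in one direction were those of oxidative phosphorylation and the ribosome. Of 24 oxidative phosphorylation subunits, 23 had a positive log2 difference, with a median of 0.30 and 0 at p under 0.05, and *Cox5a* had 0.62. That median was 0.16 without control rat 4, 0.53 without control rat 3, and -0.06 with the thyroid signal covariate. All 15 ribosomal protein genes, such as *Rps18* (-0.38), had a negative one, with a median of -0.28 that was 0.03 with 75th percentile scaling, where the median of all probes was 0.25. With the thyroid signal covariate the ribosomal median was -0.05. Immediate early genes had a median of 0.57 with 1 of 14 higher at p under 0.05 (4.05% of all probes), *Egr3*, which was well above background on 1 array of each group and lost the limit in 9 of 21 settings, among them those without 340 kBq rat 4 or control rat 1 or 2. The median was 0.21 without 340 kBq rat 3, 0.27 without rat 2, 0.21 with the slide as a block, and 0.03 with the thyroid signal covariate. *Dusp1*, a phosphatase of the same list, was at 10.03, 10.88, 10.33, and 10.38 against 10.01, 9.91, 10.03, and 9.58, a log2 difference of 0.52. Heat shock and cold-inducible genes (median -0.07 of 8, and 0.21 with 75th percentile scaling), redox genes (-0.05 of 15), cholesterol synthesis genes (0.30 of 18), and interferon-stimulated genes (-0.25 of 19) had 0 members at an unadjusted p-value under 0.05 in either direction. The cholesterol median was 0.12 without 340 kBq rat 3, 0.59 without rat 4, and 0.08 with the thyroid signal covariate, and the interferon median was -0.43 without 340 kBq rat 2 and 0.06 with the thyroid signal covariate.

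**Figure D5:**
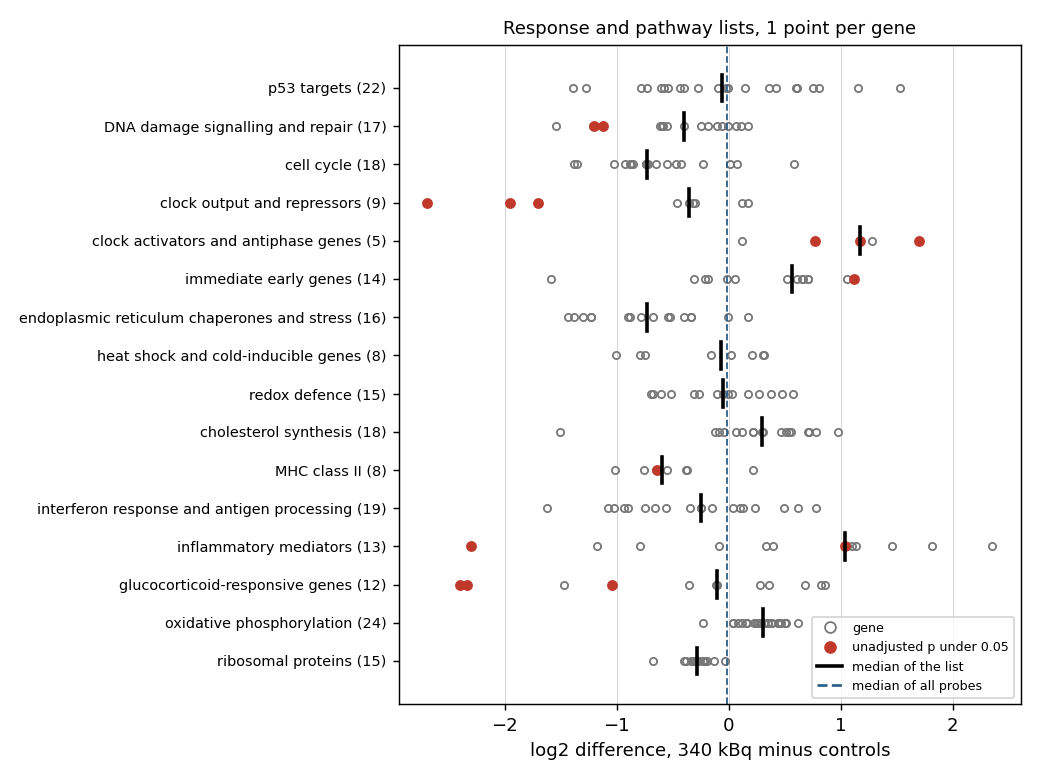
Log2 difference of 340 kBq minus controls on the x axis for every gene with a probe in 16 response lists, with 1 point per gene, red where the unadjusted p-value was under 0.05, a black bar for the median of the list and a dashed line for the median of all probes. The clock activators lie right of the line (median 1.17) and the endoplasmic reticulum list mostly left of it (median -0.73), while the p53 targets lie on both sides.

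The 340 kBq group was also compared with the mean of the 7 other irradiated groups, a comparison without controls that answers where these 4 rats differed from other injected rats. One probe was regulated under the limits given above (0.00329%), and 12 passed an adjusted p-value of 0.05 (0.0395%), 11 of them higher (0.0362%). Without adjustment, 2738 probes had a p-value under 0.05 (9.02%). The regulated probe was that of *Or56b6b*, an olfactory receptor gene, at 4.71, 7.03, 5.27, and 4.86 in the 340 kBq rats (adjusted p = 0.00956 in limma). It was well above background on 1 of the 4 arrays and on 1 of the 28 other irradiated arrays, so that the fitted log2 difference of 2.37 was taken mostly between signals near background. The call was lost with the slide as a block and with quantile normalized scanner signal, among other settings. Against the controls, at 3.16, 3.73, 3.44, and 2.78 and not well above background on any of their arrays, it was at least 1.38-fold higher, where the bound sets the dim arrays to the lowest signal that was well above background. With an unadjusted p-value below 0.01 and a change of 1.5-fold or more, 496 probes were higher (1.63%) and 281 lower (0.925%).

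The other 5 named genes among the 12 were *Opcml*, *Mrgprb13*, *Neurod1*, *Or7g18*, and *Gsx2*, which like *Or56b6b* were chosen after their values had been seen. Of the 12 probes, 10 were well above background on no control array and 7 on 1 array of the 340 kBq group. *Neurod1*, a transcription factor of neurons and endocrine cells, was at 3.69, 2.57, 4.35, and 6.08 against 2.56 to 2.59 in the controls, so that rat 2 lay with the controls. *Opcml*, a cell adhesion molecule of neurons, was at 4.98, 4.15, 8.05, and 4.51 against 2.66 to 2.98, with rat 3 highest. The highest rat thus differed from gene to gene.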

How the data were processed

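Total RNA of individual thyroids was hybridized to 1-colour Agilent rat arrays, 1 per rat. The deposited matrix holds intensities on a linear scale, which the authors quantile normalized between the 36 arrays, and its log2 values were used here. The scanner output deposited by the authors (intensity with background subtracted) came from Feature Extraction 10.7.3.1 per the labels, which also name Partek, and it gave the calls of signal well above background and the alternative scalings. A probe was called well above background on an array when the software marked most of its spots so. Each value was read by rank against the scanner signal of its array, and the order matched on every array.

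With limma 3.58.1 under R 4.3.3, group means were estimated in 1 model of the 36 arrays (27 residual degrees of freedom), and 340 kBq was compared with the controls and with the mean of the 7 other irradiated groups. P-values were adjusted over the 30367 probes with the Benjamini-Hochberg method, and regulated transcripts had an adjusted p-value below 0.01 with a change of 1.5-fold or more. Exact permutation tests of single genes were two-sided. Tables were read with data.table version 1.17.8 and joined with pandas 2.3.3, numpy 2.4.6, and scipy 1.17.1 under Python 3.11.15, and figures were drawn with matplotlib 3.10.9.

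Probes were named through their RefSeq accession on the assembly GRCr8. One symbol was found for 17998 probes (15154 genes), and 12369 stayed unnamed. A gene of a list was read on the probe of highest mean over the 36 arrays. Named genes were the 12 higher and 12 lower genes of smallest p-value with a symbol, an unadjusted p-value below 0.01, a change of 1.5-fold or more, signal well above background on at least 1 array of each group, and no overlap of the groups, up to 4 genes of smallest p-value of a list, and *Tg*, *Pax8*, *Dbp*, *Cdkn1a*, and *Mdm2*. Several lists are given by counts alone, and 1 gene is not reported here. Other genes of the lists were named after their values had been seen. The members and the lists were chosen with earlier results of these data known.

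Alternatives were scanner signals scaled to the 75th percentile, to the median, or by quantiles, normexp background correction with an offset of 50 (on median spot signals, since mean signals were not used here), addition of 16 before the logarithm, a filter on dim probes (20885 kept), the slide, scan day, or rat number as a term, array weights, trend and robust fitting, a thyroid signal covariate, only the groups compared, other limits, and each rat left out. An array brightness covariate was chosen after seeing the data.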

Additional observations from a re-analysis of the deposited data

Results flagged for a closer look

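A sample was marked as far from the rest of its group of 4 when its gap to the nearest other, divided by the range, exceeded Dixon's limit for 4 values, which was the case in 29 of 226 series of 4 values. Chance alone marks about 1 in 20. The values below are log2 intensities unless another unit is given.

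340 kBq rat 4 was the highest of its group for *Pax8* (14.05), *Dio1* (13.52), *Slc5a5* (13.60), *Mt1* (14.93), *Hsp90b1* (15.46), *Scaf4* (8.64), and *Ptmal1* (7.58), and in the mean of the hormone synthesis list (12.16) and of the list of thyroid transcription factors (13.47). The same rat was the lowest for *Bpifa1* (7.96) and *Frmd8* (5.94). Control rat 3 was the lowest control for *Tg* (14.48), *Calca* (8.69), *Atm* (5.79), *Mt2A* (12.53), and the simple epithelium list (7.83), and the highest for *Krt13* (17.10) and the squamous epithelium list (12.27). Control rat 2 was the highest control for *Rag1* (14.48), *Ccl4* (9.85), *RT1-DMb* (11.22), *Cd74* (15.19), the lymphoid list (12.52), and the cell cycle list (11.59).

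The remaining marks were spread over other rats. Rat 3 of the 340 kBq group was the highest for *Cxcl2* (10.99) and the lowest for *Snap25* (3.49), rat 2 was the highest in the mean of the clock output list (9.49), and control rat 1 was the highest control for *Nfil3* (9.55). On the array of 340 kBq rat 1 the median variation between replicate spots was 13.5%.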

How the results depend on the processing

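Of 73 genes followed under 22 settings, the log2 difference kept its direction and its side of an unadjusted p-value of 0.05 in 1413 cases, lost that p-value in 113, gained it in 66, and changed sign in 7. The 7 lay under the thyroid signal covariate, which removes follicular cell signal by its construction: *Slc5a5* 0.73, *Nkx2-1* 0.27, *Foxe1* 0.44, *Pth* 3.44, *Hsp90b1* 0.45, *Krt13* -0.32, and *Ucp1* 0.97. *Bmal1*, *Dbp*, *Per2*, *Ciart*, and *Cry1* kept an unadjusted p-value under 0.05 in every setting, *Ciart* with signal near background in 3 of the 4 irradiated rats.

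The counts below were made with an unadjusted p-value below 0.01 and a change of 1.5-fold or more, and the cause of their shifts was not tested. Against the controls, higher and lower probes numbered 1002 and 14 with 75th percentile scaling, 647 and 92 with median centring, 161 and 63 with normexp, 104 and 92 with the filter on dim probes (fewer probes tested), 202 and 82 with the slide as a block, 205 and 82 with the scan day, 721 and 1612 with array weights, 208 and 153 with only the groups compared, 524 and 502 with array brightness, 338 and 117 at 2-fold or more, and 329 and 111 with 16 added. Leaving out single rats gave 201 to 645 higher and 98 to 322 lower probes. Without 340 kBq rat 4 the counts were 201 and 144, and without 340 kBq rat 1 there were 98 lower probes.

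Against the other irradiated groups they were 1172 and 24 with 75th percentile scaling, 759 and 114 with median centring, 229 and 63 with normexp, 96 and 192 with the filter on dim probes, 262 and 147 with the slide as a block, 492 and 120 with 16 added, 531 and 729 with array weights, 675 and 556 with array brightness, and 394 and 81 at 2-fold or more. Leaving out single rats gave 194 to 882 higher and 112 to 551 lower probes.

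Regulated transcripts against the controls numbered 3 with array weights and 0 to 2 with a rat left out, 2 without control rat 1, 1 without each of 340 kBq rats 1, 2, and 3, and 0 in the other settings. Against the other irradiated groups they numbered 12 at an adjusted p-value under 0.05, 3 with array weights or array brightness, 2 with 75th percentile scaling or 16 added, and 0 with median centring, quantile normalized scanner signal, normexp, the filter on dim probes, the slide block, the replicate block, the thyroid covariate, or only the groups compared. Leaving out single rats gave 0 to 45, with 7, 20, 45, and 0 without 340 kBq rats 1 to 4.

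The rat numbers did not pair the rats, since the correlations of same-numbered rats' deviations were -0.26, 0.03, 0.40, and 0.37. With the replicate block, 360 higher and 156 lower probes were listed against the controls and 0 were regulated. The block moved *Ccl2* past an unadjusted p-value of 0.05 and no other of the 73 genes. Precision is limited by 4 arrays a group and, for dim probes, by signal near background.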
